A study of Homo sapiens with 4 samples.

Results

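The genes described here are those whose RNA was present in PC9 cells and absent or barely detected in PC9OR cells. They were selected on the measured values themselves, as every gene with at least 0.5 CPM in both PC9 libraries and under 0.1 CPM in both PC9OR libraries. CPM is the usual depth-scaled count of RNA sequencing, here the expected count of a gene (an estimated number of reads) divided by the sum of its library and scaled by the same constant in every library. The rule found 84 genes, referred to as the lost genes, among 16813 genes listed in at least 1 library and 12140 genes that met the PC9 limit. PC9 is an established human lung adenocarcinoma line, labelled as wild type in genotype and as control in phenotype. PC9OR is its derivative, also labelled wild type and labelled resistant to osimertinib. Both were grown in RPMI medium with fetal bovine serum, and total RNA was sequenced from 2 biological replicates of each. PC9OR is 1 resistant line, so a difference between the lines cannot be told apart from a difference between individual cell populations, and RNA from bulk cultures cannot tell fewer expressing cells from less RNA per cell. The libraries held 23201307 and 29062064 expected counts for PC9 and 31948974 and 32203998 for PC9OR. Values of a gene are given below for replicates 1 and 2 of a line in that order.

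The label of an epithelial tumour line was matched by its markers, and the label of a lung adenocarcinoma was not matched by lineage markers. The 6 epithelial markers summed to 5815 and 6605 CPM in PC9 and 12430 and 12127 CPM in PC9OR. KRT8 was the most abundant, at 1602 and 1865 CPM in PC9 and 4200.0 and 4198 CPM in PC9OR. The list did not move as one: EPCAM was at 337 and 332 CPM in PC9 and 320.2 and 340.3 CPM in PC9OR, and CDH1 fell, at 468 and 335 CPM in PC9 and 151 and 139 CPM in PC9OR (log2 fold change -1.46 ± 0.18, edgeR adjusted p = 0.00814). The 6 lung lineage markers (NKX2-1, NAPSA, SFTPB, SFTPC, SFTA2 and SFTA3) summed to 0.172 and 0 CPM in PC9 and 0.469 and 0.59 CPM in PC9OR. SFTPB, SFTPC and SFTA3 had no count in any library. Of the markers of other cell types, the 6 fibroblast markers summed to between 1.45 and 1.73 CPM. COL3A1 among them was at 0.525 and 0.585 CPM in PC9 and 0.537 and 0.646 CPM in PC9OR. The 5 neuroendocrine markers summed to between 0.165 and 0.275 CPM, with SYP the most abundant and CHGA, INSM1 and NEUROD1 at 0. The 8 leukocyte markers summed to 17.7 and 13.9 CPM in PC9 and 7.31 and 6.83 CPM in PC9OR, of which CD68, a lysosomal protein, gave 15.7 and 12.6 CPM in PC9 and 6.86 and 6.28 CPM in PC9OR. CD3E and MS4A1 were at 0. The 5 endothelial markers summed to 37.6 and 23.8 CPM in PC9 and 5.18 and 5.3 CPM in PC9OR. CDH5 was most of this sum, at 35 and 23.8 CPM in PC9 and 5.07 and 4.75 CPM in PC9OR, and KDR was at 0 in all 4 libraries. The 7 mesenchymal markers summed to 568 and 438 CPM in PC9 and 316 and 281 CPM in PC9OR. FN1 led, at 533 and 405 CPM in PC9 and 289 and 257 CPM in PC9OR, and ZEB2 was at 0. SNAI2 and ZEB1 were also lower in PC9OR, but this list did not move as one either. VIM was at 12.4 and 14.8 CPM in PC9 and 13.7 and 11.8 CPM in PC9OR. TWIST1 was higher in PC9OR, at 0.345 and 0.31 CPM in PC9 and 1.13 and 1.52 CPM in PC9OR. The part of these markers in the loss of the 84 genes was not tested.

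The epidermal growth factor receptor is a receptor tyrosine kinase whose activating mutations drive many lung adenocarcinomas, PC9 among them. Osimertinib binds the mutant kinase irreversibly, and resistant lines grow in its presence. Some of the genes described below are of kinds that normal tissues use in a restricted way, such as germ cell antigens, mucins and guidance cues, which tumour lines may also express.

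Of the 84 genes, 46 were listed in neither PC9OR library, 25 in 1 and 13 in both. The limit of 0.1 CPM itself allows about 3 counts in a PC9OR library, and the highest count was 3.12. A floor of 3 counts over both PC9OR libraries equals 0.0468 CPM, and folds below are given against that floor for genes without a PC9OR count, covering counting error only. Ratios for the other lost genes pool both libraries of a line, and their intervals also cover counting error only, not the spread between replicates. The rule chose the genes by these same counts, so folds and ratios may be too high and are a description. Most lost genes were weakly expressed to begin with: the median of the PC9 mean was 1.6 CPM, the upper quartile 3.44 CPM, and the median PC9 library held 43.7 counts of a lost gene, against a median PC9 mean of 32.9 CPM over the other genes of 0.5 CPM or more. Only 16 lost genes had a PC9 mean of at least 5 CPM, of 10186 genes at that level, and 5 had at least 10 CPM, of 9128. The opposite rule, at least 0.5 CPM in both PC9OR libraries and under 0.1 CPM in both PC9 libraries, found 59 genes. Between replicates of the same line, 184 genes had at least 0.5 CPM in 1 PC9 library and under 0.1 CPM in the other, 106 of them higher in replicate 1, and 112 genes did so between the PC9OR libraries. Between 171 and 237 genes met the limits in a single PC9 library against a single PC9OR library. All 84 lost genes were called lower by edgeR's quasi-likelihood test, which the rule makes near certain, and nothing is read from that. Over all 13148 genes tested, 11.6% were called lower, that is over 2-fold with an adjusted p under 0.05 (1523 genes), and 6.13% higher (806 genes).

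**Figure D1:**
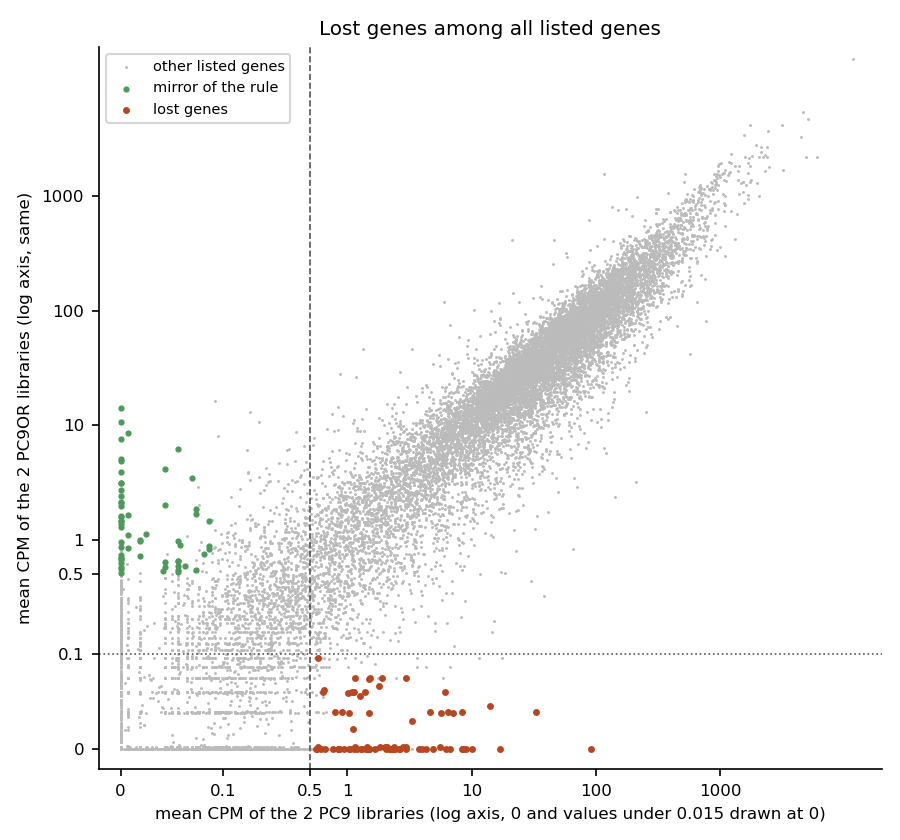
Mean CPM of each of the 16813 listed genes in the 2 PC9 libraries (x axis) against the 2 PC9OR libraries (y axis), on log axes with 0 drawn at the edge. The 84 lost genes (red) lie below 0.1 CPM in PC9OR and reach 91.7 CPM in PC9, and the 59 genes of the opposite rule (green) lie at the left.

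The gene with the highest PC9 level was MAGEC1 (GRCh37 chromosome X, 140991680 to 140997160, plus strand), a cancer-testis antigen, one of the proteins normally made in germ cells and re-expressed in tumours. MAGEC1 was at 113 and 70.0 CPM in PC9, 2630 and 2034 counts, and had no count in either PC9OR library. MAGEC1 was at least 1908-fold lower in PC9OR. Other genes of this kind were not lost. Of the 8 other cancer-testis antigens tested from a written list of 42, 6 were called higher in PC9OR (VCX, VCX3A, MAGEA2, MAGEA2B, MAGEA4 and MAGEA6) and 0 lower. Over all tested genes 6.13% were called higher. MAGEA6 stood at 168 and 221 CPM in PC9 and 666 and 685 CPM in PC9OR (log2 fold change with an approximate SE 1.80 ± 0.17, edgeR adjusted p = 0.00547). MAGEA4 stood at 85.9 and 116 CPM in PC9 and 202 and 219.7 CPM in PC9OR (log2 fold change 1.06 ± 0.18, edgeR adjusted p = 0.0143). MAGEA12, at 19.3 and 28.6 CPM in PC9 and 22.5 and 28.7 CPM in PC9OR, was not called. Neither was CSAG1, at 0.473 and 0.456 CPM in PC9 and 0.449 and 0.445 CPM in PC9OR. MAGEA2 and MAGEA2B are near-identical copies whose reads the counting may have split. Only 0.384% of the 50-base words of MAGEC1 transcripts occur in a gene elsewhere.

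**Figure D2:**
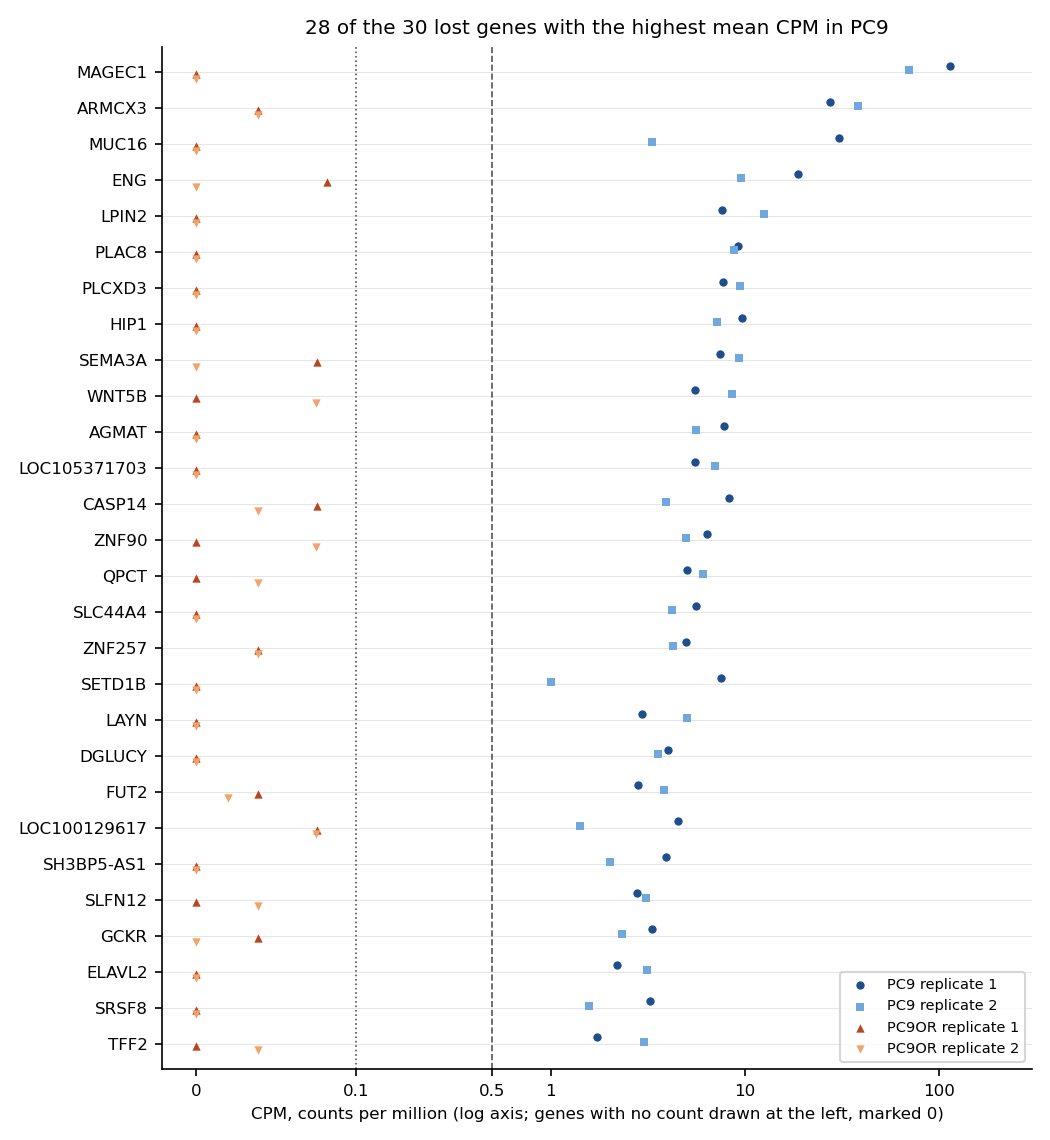
CPM in each of the 4 libraries (log axis, no count drawn at 0) for 28 of the 30 lost genes with the highest mean in PC9, with the limits of the rule at 0.5 CPM (dashed) and 0.1 CPM (dotted). MAGEC1 had no count in PC9OR, ARMCX3 had 1 count in each PC9OR library, and MUC16 and SETD1B were far apart in the 2 PC9 libraries.

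The second most abundant lost gene, ARMCX3 (GRCh37 chromosome X, 100877787 to 100882833, plus strand), encodes an armadillo-repeat protein of the mitochondrial outer membrane that takes part in mitochondrial transport. It was at 27.4 and 38 CPM in PC9 and had 1 count in each PC9OR library. The ARMCX3 ratio of PC9 to PC9OR was 1068 (95% counting interval 295 to 8825). A second gene of this X-linked family, ARMCX4, was at 1.85 and 0.723 CPM in PC9 with no PC9OR count. Between them lies ARMCX6, just outside the rule at 5.53 and 6.2 CPM in PC9 and 0 and 0.124 CPM in PC9OR (log2 fold change -6.45 ± 0.84, edgeR adjusted p = 0.00892). These 3 genes therefore span a stretch from 100673275 to 100882833 in which no gene of 0.5 CPM or more in PC9 kept its level. The next family member, ARMCX5, which starts at 101854096, was at 13.7 and 16.1 CPM in PC9 and 19.6 and 20.8 CPM in PC9OR and was not called (log2 fold change 0.44 ± 0.16, edgeR adjusted p = 0.0854). The gene before ARMCX4, HNRNPH2, was at 20.7 and 27.1 CPM in PC9 and 50.9 and 34.4 CPM in PC9OR. ARMCX1 and ARMCX2 were too low in both lines to be tested.

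Lost genes lay next to each other in 3 places, each a pair, when only genes of at least 0.5 CPM in both PC9 libraries were counted along the chromosome. The pair TFF2 and TFF1 (chromosome 21, 43766466 to 43786644) encodes trefoil peptides, small secreted proteins that protect mucosal surfaces. TFF2 was at 1.72 and 3.03 CPM in PC9 and 0 and 0.0311 CPM in PC9OR. The TFF2 ratio of PC9 to PC9OR was 157 (95% counting interval 27.7 to 6254). TFF1 was at 1.72 and 2.48 CPM in PC9 and 0.0313 and 0 CPM in PC9OR. The TFF1 ratio of PC9 to PC9OR was 137 (95% counting interval 24.2 to 5478). The trefoil genes are the whole of the family listed here, and both were lost. The flanking genes were not called over 2-fold. ABCG1 was at 9.53 and 9.98 CPM in PC9 and 6.17 and 5.59 CPM in PC9OR, and RSPH1 at 2.33 and 2.55 CPM in PC9 and 1.44 and 1.61 CPM in PC9OR.

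The pair ZNF682 and ZNF90 (chromosome 19, 20107867 to 20237885) sits in a cluster of zinc finger genes of the KRAB type, which are transcriptional repressors, many of them directed at transposable elements. ZNF90 was at 6.38 and 4.95 CPM in PC9 and 0 and 0.0621 CPM in PC9OR. The ZNF90 ratio of PC9 to PC9OR was 179 (95% counting interval 49.2 to 1487). ZNF682 was at 1.25 and 1.07 CPM in PC9 and 0 and 0.0311 CPM in PC9OR. The ZNF682 ratio of PC9 to PC9OR was 73.7 (95% counting interval 12.7 to 2957). Here the genes on both sides also fell. ZNF93 went from 4.01 and 3.03 to 0.661 and 1.09 CPM (log2 fold change -2.00 ± 0.41, edgeR adjusted p = 0.0215). ZNF486 went from 12.6 and 12.9 to 1.16 and 1.12 CPM (log2 fold change -3.48 ± 0.23, edgeR adjusted p = 0.00372). The gene after it, ZNF737, went from 2.79 and 2.34 to 0.407 and 0.248 CPM (log2 fold change -2.95 ± 0.44, edgeR adjusted p = 0.0112). Beyond these 5 genes the nearest gene was not called on either side. ZNF253 was at 1.07 and 0.808 CPM in PC9 and 1.24 and 1.18 CPM in PC9OR. ZNF626 was at 1.83 and 2.74 CPM in PC9 and 1.43 and 1.85 CPM in PC9OR. ZNF257, at 22235232 on the same chromosome, was lost on its own, at 4.96 and 4.27 CPM in PC9 and 0.0313 and 0.0311 CPM in PC9OR. The ZNF257 ratio of PC9 to PC9OR was 147 (95% counting interval 40.2 to 1218). ZNF732, on chromosome 4, was at 0.56 and 0.551 CPM in PC9 and 0 and 0 CPM in PC9OR. Of 197 genes on chromosome 19 whose symbol begins with ZNF and that had at least 0.5 CPM in both PC9 libraries, 3 were lost, 11 others were called lower and 4 higher. Over all 448 tested genes with such a symbol, 4 were lost, beside 84 of all 13148 tested genes. Of the 444 others, 36 were called lower (8.11%) and 19 higher (4.28%), both below the 11.6% and 6.13% over all tested genes, and the median log2 fold change was -0.07. Zinc finger genes share sequence, and 3.9% of the 50-base words of ZNF90, 0.872% of ZNF682, 2.69% of ZNF257 and 4.57% of ZNF732 occur in genes elsewhere.

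The third pair, CACNA2D4 and DCP1B (chromosome 12, 1901129 to 2113701), encodes a calcium channel subunit and a cofactor of mRNA decapping. CACNA2D4 was at 0.56 and 0.585 CPM in PC9 and 0 and 0 CPM in PC9OR, close to the PC9 limit. DCP1B was at 2.28 and 1.75 CPM in PC9 and 0.0313 and 0 CPM in PC9OR. The DCP1B ratio of PC9 to PC9OR was 128 (95% counting interval 22.4 to 5090.1). Another lost gene, WNT5B, a secreted WNT ligand of the non-canonical class, starts at 1639057 on the same chromosome and was at 5.56 and 8.57 CPM in PC9 and 0 and 0.0621 CPM in PC9OR. The WNT5B ratio of PC9 to PC9OR was 232 (95% counting interval 63.8 to 1923). FBXL14, which lies within WNT5B on the opposite strand, and ADIPOR2, between WNT5B and CACNA2D4, were not called over 2-fold. FBXL14 was at 18.8 and 19 CPM in PC9 and 27.4 and 22.2 CPM in PC9OR, and ADIPOR2 at 166 and 163 CPM in PC9 and 98.3 and 98.9 CPM in PC9OR. On the other side of WNT5B the long non-coding LINC00942 moved the opposite way, from 1.21 and 1.13 to 28.6 and 24.1 CPM (log2 fold change 4.49 ± 0.20, edgeR adjusted p = 0.00249).

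**Figure D3:**
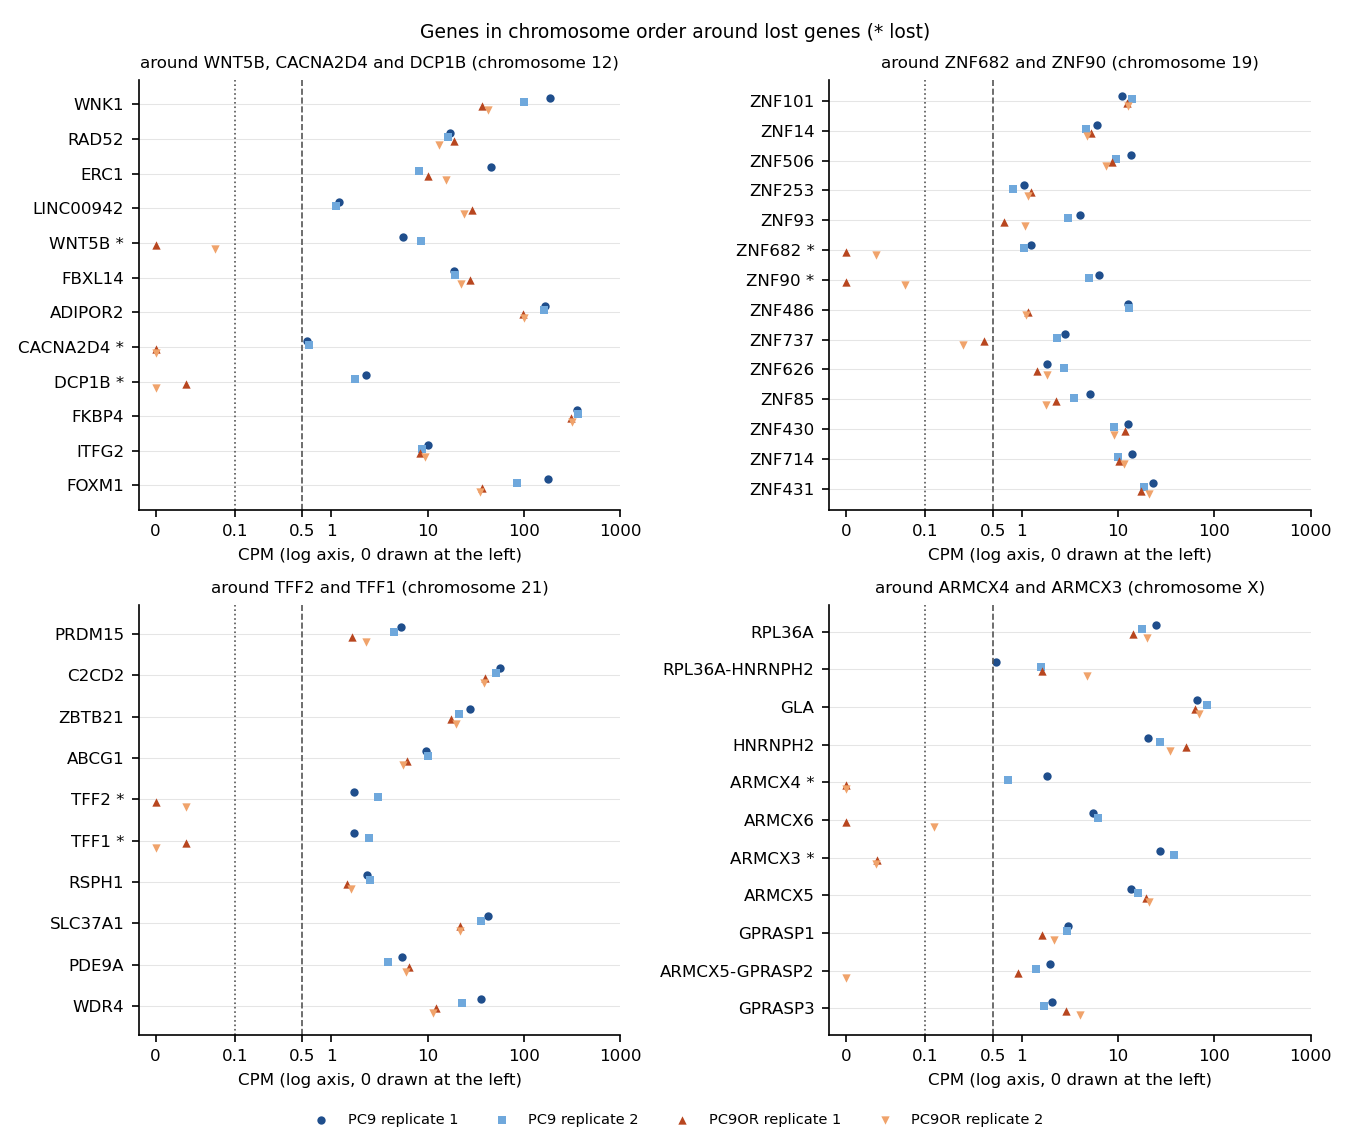
CPM in the 4 libraries (log axis, no count at 0) of genes of at least 0.5 CPM in PC9, from top to bottom in chromosome order, around lost genes (marked *). ARMCX6 and the genes beside ZNF682 and ZNF90 were called lower in PC9OR, while ABCG1 and RSPH1 beside TFF2 and TFF1, and FBXL14 and ADIPOR2 near WNT5B, were not called over 2-fold.

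Neighbours of lost genes could be tested, because the rule used their PC9OR values only to leave out lost genes. Positions on GRCh37 were found for 79 lost genes, and the nearest gene on each side with at least 0.5 CPM in both PC9 libraries that was not itself lost gave 151 neighbours. Of these, 29 were called lower (19.2%) and 3 higher (1.99%), beside 11.7% lower and 4.85% higher among all 12056 such genes that were not lost. The median log2 fold change was -0.18 for the neighbours and -0.01 for all 12056. The neighbours that fell furthest were KRT23, ARMCX6 and NAV2. The keratin gene KRT23, beside KRTAP2-3, was at 17 and 18 CPM in PC9 and 0.188 and 0 CPM in PC9OR (log2 fold change -7.48 ± 0.74, edgeR adjusted p = 0.00579). NAV2, a cytoskeleton-associated protein of neurite growth whose gene overlaps the lost LEISA1, was at 21.8 and 12.8 CPM in PC9 and 0.421 and 0.631 CPM in PC9OR (log2 fold change -5.05 ± 0.41, edgeR adjusted p = 0.00479). Around SEMG1 the genes of 2 secreted protease inhibitors of mucosal surfaces both fell. PI3 was at 78.2 and 71.8 CPM in PC9 and 9.45 and 9.16 CPM in PC9OR (log2 fold change -3.00 ± 0.12, edgeR adjusted p = 0.0019). SLPI was at 136 and 186 CPM in PC9 and 54.5 and 57.8 CPM in PC9OR (log2 fold change -1.52 ± 0.19, edgeR adjusted p = 0.00797). SEMA3E, beside SEMA3A, was at 3.39 and 3.19 CPM in PC9 and 0.641 and 0.546 CPM in PC9OR (log2 fold change -2.46 ± 0.34, edgeR adjusted p = 0.00989). With the 2 nearest genes on each side, 45 of 298 were called lower (15.1%). The 3 neighbours called higher were LINC00942, DBP and HEY1. Neighbours share regions, overlap lost genes in places and are not independent of each other, and the share is given as a description.

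Lost genes were spread over the genome. Chromosome 21 held 4 lost genes of 114 genes of 0.5 CPM or more in PC9 (3.51%), chromosome X 5 of 362 (1.38%) and chromosome 19 7 of 846 (0.827%), against 0.692% over all such genes, and chromosomes 10 and 22 held none of 468 and 282. The 4 on chromosome 21 were TFF1, TFF2, TRPM2 and BACH1-IT2.

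The lost genes were sorted by known role after their values had been seen, and the groups are a description only. The group of mucosal and epithelial surface genes had 13 members with PC9 means between 0.581 and 16.9 CPM. MUC16, the cell-surface mucin measured in serum as CA125, was at 30.5 and 3.31 CPM in PC9 and had no PC9OR count. MUC16 was at least 329-fold lower in PC9OR, but with PC9 replicate 2 alone the bound was 70.8-fold and with replicate 1 alone 652-fold. The PC9 libraries differed 9.2-fold, more than for any other lost gene. PLAC8, a small cysteine-rich protein, was at 9.25 and 8.77 CPM in PC9 with no PC9OR count. PLAC8 was at least 192-fold lower in PC9OR. CASP14, a caspase of keratinocyte differentiation, was at 8.23 and 3.92 CPM in PC9 and 0.0626 and 0.0311 CPM in PC9OR. SLC44A4, a transporter of the choline transporter-like family, was at 5.59 and 4.23 CPM in PC9 and 0 and 0 CPM in PC9OR. FUT2, the fucosyltransferase that sets secretor status, was at 2.82 and 3.82 CPM in PC9 and 0.0313 and 0.0217 CPM in PC9OR. Lower in PC9 were NCCRP1 (2.5 and 2.03 CPM), the rhomboid protease RHBDL2 (1.47 and 1.45 CPM), PDZK1IP1 (1.42 and 1.54 CPM), the hair keratin-associated KRTAP2-3 (1.9 and 1.13 CPM), the protease inhibitor CSTA (0.991 and 1.79 CPM) and SEMG1, a seminal coagulum protein, at 0.577 and 0.585 CPM.

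The tested mucins were called in the same direction and keratin genes in both. Of 17 mucins written in a list, 6 were tested, and the 5 beside MUC16 were all called lower, beside 11.6% over all tested genes. The number of mucins is too small to read against that share. MUC5B, a secreted gel-forming mucin, was at 30.4 and 6.39 CPM in PC9 and 0.522 and 0.508 CPM in PC9OR (log2 fold change -5.13 ± 0.88, edgeR adjusted p = 0.0145). MUC5AC, of the same kind, was at 1.9 and 1.65 CPM in PC9 and 0 and 0.124 CPM in PC9OR. The cell-surface mucin MUC4 was at 68.7 and 35.8 CPM in PC9 and 5.45 and 5.2 CPM in PC9OR (log2 fold change -3.28 ± 0.34, edgeR adjusted p = 0.00631). MUC1, also of the cell surface, was at 4.65 and 2.89 CPM in PC9 and 0.469 and 0.714 CPM in PC9OR, and MUC20 at 3.8 and 3.48 CPM in PC9 and 1.31 and 1.09 CPM in PC9OR. The median log2 fold change of these 5 was -3.28. MUC5B and MUC4 also differed between the PC9 libraries, in the same direction as MUC16. Among the 25 tested genes other than KRTAP2-3 whose symbol begins with KRT, 6 were called lower (24%) and 8 higher (32%), beside 11.6% and 6.13% over all tested genes. These take in the antisense KRT10-AS1, called higher, and KRTCAP2 and KRTCAP3, which are not keratins. KRT5, of basal cells, was called lower, at 50.5 and 44.1 CPM in PC9 and 3.6 and 3.39 CPM in PC9OR (log2 fold change -3.75 ± 0.15, edgeR adjusted p = 0.0019). KRT15, also of basal cells, was called higher, at 3.99 and 2.64 CPM in PC9 and 42.6 and 49.2 CPM in PC9OR. FUT2 was the only fucosyltransferase lost: FUT4 was called lower at 23.2 and 23.2 CPM in PC9 and 7.11 and 6.77 CPM in PC9OR (log2 fold change -1.74 ± 0.15, edgeR adjusted p = 0.005), and FUT1, FUT3, FUT8 and FUT9 were not called. The other 3 tested SLC44A genes were not called either.

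**Figure D4:**
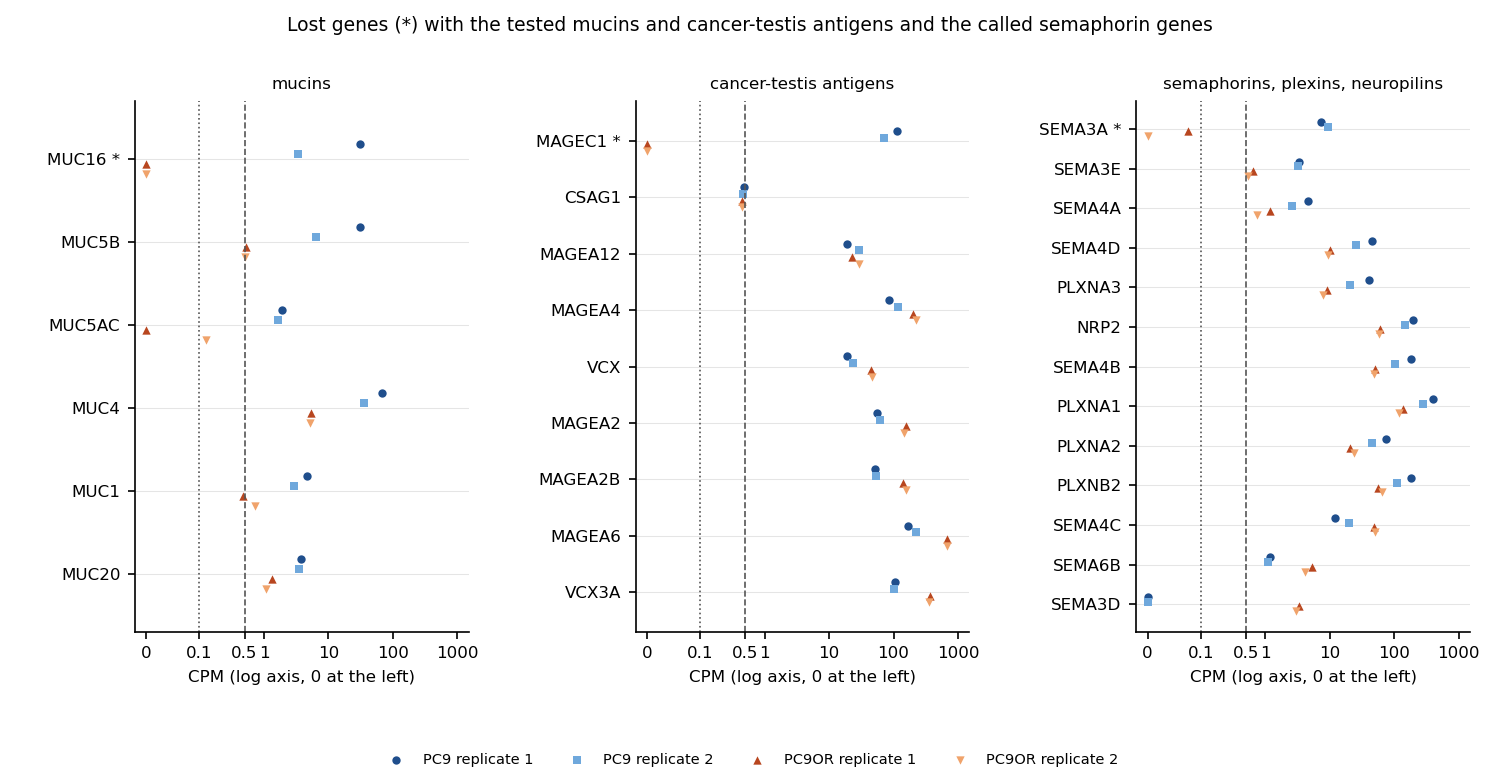
CPM in the 4 libraries (log axis, no count at 0) of the tested mucins, the tested cancer-testis antigens and the called semaphorins, plexins and neuropilins, with lost genes marked *. The 5 other mucins were lower in PC9OR, 6 cancer-testis antigens were higher, and SEMA3D, with no count in PC9, stood at 3.32 and 2.98 CPM in PC9OR.

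A second group, of 16 genes with PC9 means between 0.573 and 8.37 CPM, has known roles in axon guidance, cell adhesion or synapses, processes that in epithelial tumours bear on migration and cell contact. SEMA3A, a secreted repulsive guidance cue that binds neuropilins and plexins, was at 7.41 and 9.32 CPM in PC9 and 0.0626 and 0 CPM in PC9OR. The SEMA3A ratio of PC9 to PC9OR was 272 (95% counting interval 74.8 to 2252). SLIT2, the ligand of ROBO receptors, was at 2.07 and 0.9 CPM in PC9 and 0 and 0 CPM in PC9OR. The secreted glycoprotein RELN was at 0.776 and 0.551 CPM in PC9 and 0 and 0 CPM in PC9OR, and the Eph receptor EPHA7 at 0.69 and 1.03 CPM in PC9 and 0 and 0 CPM in PC9OR. Among synaptic genes, the vesicle-priming factor UNC13B was at 2.67 and 2.03 CPM in PC9 and DNAJC6, the clathrin-uncoating auxilin, at 3.28 and 0.824 CPM, both without a PC9OR count. The adhesion genes NLGN1 (2.67 and 1.14 CPM in PC9 and 0.0626 and 0.0621 CPM in PC9OR) and CNTNAP1 (2.16 and 0.826 CPM in PC9 and 0 and 0.0621 CPM in PC9OR) retained a few counts. So did DTNA, of the dystrophin complex (0.975 and 1.32 CPM in PC9 and 0.0626 and 0.0621 CPM in PC9OR). The glypican GPC6 (1.68 and 1.31 CPM), the calmodulin-binding NRGN (0.981 and 0.728 CPM) and the GABA receptor subunit GABRR2 (0.517 and 0.723 CPM) had none, and the protocadherin PCDH20 was at 0.733 and 0.551 CPM in PC9 and 0.0939 and 0 CPM in PC9OR. WNT5B and CACNA2D4, described above, belong to the same group.

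Of the 24 other semaphorins, plexins and neuropilins tested beside SEMA3A, 9 were called lower (37.5%) and 3 higher (12.5%), beside 11.6% and 6.13% over all tested genes. The receptor NRP2 was at 197 and 147 CPM in PC9 and 60.3 and 57.4 CPM in PC9OR (log2 fold change -1.54 ± 0.16, edgeR adjusted p = 0.00639). The receptor PLXNA1 was at 393 and 282 CPM in PC9 and 136 and 118 CPM in PC9OR (log2 fold change -1.41 ± 0.19, edgeR adjusted p = 0.00913). NRP1 was not called, at 227 and 189 CPM in PC9 and 175 and 172 CPM in PC9OR. SEMA4C was called higher, at 12 and 19.6 CPM in PC9 and 48.4 and 49.8 CPM in PC9OR (log2 fold change 1.63 ± 0.26, edgeR adjusted p = 0.012). SEMA6B was at 1.21 and 1.1 CPM in PC9 and 5.23 and 4.19 CPM in PC9OR (log2 fold change 2.03 ± 0.30, edgeR adjusted p = 0.0113). SEMA3D, a class 3 semaphorin like SEMA3A, had no count in PC9 and was at 3.32 and 2.98 CPM in PC9OR. Among the 12 other WNT ligands tested beside WNT5B, 3 were called lower (WNT2B, WNT7B and WNT10A) and 3 higher (WNT6, WNT9A and WNT11), 25% each. WNT5A was at 9.35 and 9.91 CPM in PC9 and 16.6 and 16.3 CPM in PC9OR, not called over 2-fold. Of the 5 other EPHA receptors, EPHA6 was called lower, at 2.24 and 1.65 CPM in PC9 and 0.438 and 0.683 CPM in PC9OR. EPHA4 was called higher, at 16.9 and 17 CPM in PC9 and 80.1 and 69.6 CPM in PC9OR (log2 fold change 2.15 ± 0.13, edgeR adjusted p = 0.00327). NLGN2 was called lower with NLGN1 lost, at 46.1 and 20.2 CPM in PC9 and 6.29 and 5.47 CPM in PC9OR (log2 fold change -2.48 ± 0.42, edgeR adjusted p = 0.0139). CNTNAP3B was called higher, at 0.241 and 0.271 CPM in PC9 and 1.77 and 1.65 CPM in PC9OR. PCDH20 was 1 of 8 protocadherins tested, of which PCDH1 and PCDHGC3 were called lower and PCDHGA11 higher.

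Another group held 12 genes of transcription and RNA handling, 4 of them the zinc finger genes above. SETD1B, a methyltransferase of histone H3 lysine 4, was at 7.55 and 0.998 CPM in the PC9 libraries, 7.57-fold apart, with no PC9OR count. Its paralog SETD1A was at 60.3 and 25 CPM in PC9 and 5.78 and 6.14 CPM in PC9OR (log2 fold change -2.82 ± 0.44, edgeR adjusted p = 0.012). ELAVL2, a neuronal RNA-binding protein, was at 2.2 and 3.13 CPM in PC9 and LIN28B, which blocks maturation of let-7 microRNAs, at 0.544 and 1.72 CPM, both without a PC9OR count. The ubiquitous ELAVL1 was not called, at 152 and 119 CPM in PC9 and 80.1 and 81.1 CPM in PC9OR. SRSF8, an arginine-serine splicing factor, was at 3.24 and 1.57 CPM with no PC9OR count. None of the 10 other SRSF genes tested was called, too few to read against the 11.6% called lower and 6.13% called higher over all tested genes. DCP1A, the paralog of the lost DCP1B, was called lower, at 21.1 and 16.5 CPM in PC9 and 9.07 and 8.68 CPM in PC9OR (log2 fold change -1.07 ± 0.19, edgeR adjusted p = 0.0149). The decapping enzyme DCP2 was not, at 102 and 108 CPM in PC9 and 112 and 121 CPM in PC9OR. EIF3CL, at 0.774 and 1.33 CPM in PC9 and 0 and 0 CPM in PC9OR, shares 97.1% of its 50-base words with other genes, most with EIF3C, so its count depends on how reads were divided and its loss is uncertain.

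Immune genes formed a group of 7 at low levels, with PC9 means between 0.581 and 2.94 CPM. The Schlafen gene SLFN12 was at 2.77 and 3.11 CPM in PC9 and 0 and 0.0311 CPM in PC9OR. The SLFN12 ratio of PC9 to PC9OR was 189.9 (95% counting interval 33.6 to 7563). Its tested relative SLFN5 was not called, at 108 and 105 CPM in PC9 and 75.6 and 72.2 CPM in PC9OR. TNFSF13, the B cell cytokine APRIL, was at 1.35 and 1.45 CPM in PC9 and 0 and 0 CPM in PC9OR. The gene TNFSF12-TNFSF13, which overlaps TNFSF13 on the same strand, was at 0 and 0 CPM in PC9 and 0.23 and 0 CPM in PC9OR. The TNFSF13 counts were not whole numbers, so reads may have been divided between these genes and the loss of TNFSF13 is uncertain. IL7, a lymphocyte growth factor, was at 0.69 and 1.14 CPM in PC9 and 0.0313 and 0.0311 CPM in PC9OR. PYCARD, the adaptor ASC that joins inflammasome sensors to caspase 1, was at 0.905 and 0.619 CPM in PC9 and 0 and 0 CPM in PC9OR. Of the 16 other genes tested from a list of the IL1 family, its receptors and the inflammasome, 3 were called lower (18.8%) and 1, IL18R1, higher (6.25%), beside 11.6% and 6.13% over all tested genes, numbers too small to read against those shares. The 3 were the cytokines IL1B, IL1A and IL18. IL1B was at 127 and 114 CPM in PC9 and 6.17 and 5.34 CPM in PC9OR (log2 fold change -4.38 ± 0.15, edgeR adjusted p = 0.00167). IL1A was at 99.4 and 132 CPM in PC9 and 6.32 and 6.33 CPM in PC9OR (log2 fold change -4.19 ± 0.20, edgeR adjusted p = 0.00249), and IL18 at 67.9 and 81.8 CPM in PC9 and 20.5 and 18.5 CPM in PC9OR (log2 fold change -1.94 ± 0.15, edgeR adjusted p = 0.00457). CASP1 was low in both lines, at 0.517 and 0.379 CPM in PC9 and 0.219 and 0.186 CPM in PC9OR, and GSDMD was at 35.5 and 47.3 CPM in PC9 and 68 and 62.7 CPM in PC9OR. HLA-B, a class I antigen-presenting molecule, was at 0.859 and 1.69 CPM in PC9 and 0 and 0.0876 CPM in PC9OR. None of the 7 other genes of the HLA list tested was called, too few to read against those shares, with HLA-C at 70.3 and 85.3 CPM in PC9 and 74.6 and 66 CPM in PC9OR. The class I light chain gene B2M was at 216 and 327 CPM in PC9 and 298 and 332 CPM in PC9OR. HLA genes are highly polymorphic and share reads, and the HLA-B counts were not whole numbers, so this low count is uncertain. The cation channel TRPM2 was at 0.827 and 0.849 CPM in PC9 and 0 and 0 CPM in PC9OR. TRPM4 was called higher, at 2.7 and 3.26 CPM in PC9 and 16.5 and 14 CPM in PC9OR (log2 fold change 2.35 ± 0.22, edgeR adjusted p = 0.00547). KMO, of tryptophan breakdown along the kynurenine path, was at 0.647 and 0.516 CPM in PC9 and 0.0939 and 0.0932 CPM in PC9OR. The KMO ratio of PC9 to PC9OR was 6.14 (95% counting interval 2.51 to 18). This was the smallest ratio among the lost genes. Of the 21 genes tested beside TNFSF13 whose symbol begins with TNF, 4 were called lower (19%, beside 11.6% over all tested genes) and 0 higher. They were TNF and its relative TNFRSF9, and TNFAIP2 and TNFAIP3, which are genes induced by TNF and not members of its family. TNFAIP3, an inhibitor of NF-kB signalling, was at 219.9 and 152 CPM in PC9 and 20.3 and 19.9 CPM in PC9OR (log2 fold change -3.20 ± 0.21, edgeR adjusted p = 0.00363).

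Metabolic, membrane and trafficking genes made up 16 members, 11 of them without a PC9OR count. ENG, the TGF-beta co-receptor endoglin, was at 18.6 and 9.57 CPM in PC9 and 0.0707 and 0 CPM in PC9OR. The ENG ratio of PC9 to PC9OR was 386 (95% counting interval 120.2 to 3605). ENG is best known from endothelium. Of the 5 endothelial markers, CDH5 was also lower in PC9OR, at 35 and 23.8 CPM in PC9 and 5.07 and 4.75 CPM in PC9OR, KDR was at 0, and the list summed to 37.6 and 23.8 CPM in PC9 and 5.18 and 5.3 CPM in PC9OR, whose part in the ENG values was not tested. LPIN2, a phosphatidate phosphatase of glycerolipid synthesis, was at 7.57 and 12.6 CPM in PC9 without a PC9OR count. LPIN2 was at least 221-fold lower in PC9OR. The other lipins were not called, with LPIN1 at 107 and 82 CPM in PC9 and 90.3 and 78.1 CPM in PC9OR and LPIN3 at 13.4 and 8.17 CPM in PC9 and 12.5 and 10.9 CPM in PC9OR. HIP1, a clathrin adaptor, was at 9.7 and 7.17 CPM with no PC9OR count. HIP1 was at least 177-fold lower in PC9OR. Its relative HIP1R was not called, at 41.5 and 38.4 CPM in PC9 and 31.9 and 29.4 CPM in PC9OR. PLCXD3, with a phospholipase C domain, was at 7.72 and 9.39 CPM and AGMAT, which hydrolyses agmatine, at 7.83 and 5.61 CPM, both without a PC9OR count. QPCT, which forms pyroglutamate at protein ends, was at 5.04 and 6.09 CPM in PC9 and 0 and 0.0311 CPM in PC9OR. The hyaluronan receptor LAYN (2.94 and 5.01 CPM), the D-glutamate cyclase DGLUCY (4.01 and 3.58 CPM), the membrane metalloproteinase MMP24 (1.14 and 0.929 CPM), the motor adaptor BICDL2 (1.41 and 1.49 CPM), PHLDB1 (0.898 and 0.987 CPM) and LRATD1 (1.34 and 1.07 CPM) also had no PC9OR count. GCKR, the glucokinase regulator, was at 3.32 and 2.34 CPM in PC9 and 0.0313 and 0 CPM in PC9OR, and ARHGAP40 at 2.37 and 1.27 CPM in PC9 and 0 and 0.0311 CPM in PC9OR. Of the 9 other MMP genes tested, MMP1, MMP9, MMP11 and MMP13 were called higher (44.4%) and MMP16 lower (11.1%), beside 6.13% and 11.6% over all tested genes. PHLDB2, the paralog of PHLDB1, was abundant and called lower, at 925 and 793 CPM in PC9 and 431 and 408 CPM in PC9OR (log2 fold change -1.03 ± 0.12, edgeR adjusted p = 0.00749). LRATD2 was not called, at 537 and 515 CPM in PC9 and 372 and 328 CPM in PC9OR.

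The remaining coding genes were LRRC34, ANKRD36C, FAM156A, C5orf63 and SPATA6L, for which no role is given. LRRC34 was at 2.74 and 1.88 CPM in PC9 and 0 and 0 CPM in PC9OR, and ANKRD36C at 2.58 and 1.88 CPM in PC9 and 0 and 0 CPM in PC9OR. FAM156A was at 2.01 and 1.55 CPM in PC9 and 0.0635 and 0.0429 CPM in PC9OR, and C5orf63 at 1.42 and 1.43 CPM in PC9 and 0.0313 and 0 CPM in PC9OR. SPATA6L was at 1.03 and 0.551 CPM in PC9 and 0.0626 and 0 CPM in PC9OR. ANKRD36C shares 35.9% of its 50-base words with other genes, FAM156A 63% (most with FAM156B) and KRTAP2-3 39.7% (most with KRTAP2-4), and with EIF3CL these are the 4 of 79 checked genes above 20%. In 74 of the 79 the share was under 5%.

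No coding transcript was found for 14 of the 84 lost genes (16.7%), 13 of them long non-coding RNA in RefSeq and 1 with no type given, compared with 3.83% of the other genes of 0.5 CPM or more in PC9 and with 17.4% of the 1466 such genes whose PC9 mean did not exceed the upper quartile of the lost genes. LOC105371703 was the most abundant, at 5.52 and 7.01 CPM in PC9 and no PC9OR count. LOC105371703 was at least 136-fold lower in PC9OR. SH3BP5-AS1 was at 3.91 and 2.02 CPM with no PC9OR count, while the gene on the opposite strand, SH3BP5, was at 49.9 and 52.7 CPM in PC9 and 52.7 and 50.7 CPM in PC9OR (log2 fold change 0.02 ± 0.11, edgeR adjusted p = 0.917). CCAT1, a transcript known from colon cancer, was at 2.33 and 0.605 CPM in PC9 and 0 and 0 CPM in PC9OR. MIR9-3HG, the host of a miR-9 hairpin, was at 0.683 and 1.94 CPM in PC9 and 0 and 0 CPM in PC9OR. LOC100129617 was at 4.53 and 1.41 CPM in PC9 and 0.0626 and 0.0621 CPM in PC9OR and LINC00960 at 1.79 and 1.58 CPM in PC9 and 0 and 0 CPM in PC9OR. The others had PC9 means below 1.6 CPM: a gene without a symbol, known by its Entrez identifier alone, LEISA1, SIRPG-AS1, ERI3-IT1, BACH1-IT2, LOC100507472, SNHG31 and LINC02547. Of the 23 listed genes whose locus overlaps a lost gene, 16 were tested and 3 were called lower, beside 11.6% over all tested genes, a number too small to read against that share. These were NAV2 over LEISA1, BACH1 over BACH1-IT2 and MMP24OS over MMP24. BACH1 was at 262 and 254 CPM in PC9 and 113 and 116 CPM in PC9OR (log2 fold change -1.16 ± 0.10, edgeR adjusted p = 0.005), and MMP24OS at 10.3 and 7.73 CPM in PC9 and 3.27 and 2.93 CPM in PC9OR (log2 fold change -1.53 ± 0.25, edgeR adjusted p = 0.0137). A stranded kit is named in the labels. Whether strand was used in counting is not given in the sources used here, so reads of overlapping genes may not be fully separated.

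The DNA before the start of the lost genes was compared with that of other genes, since CG-rich promoters and CG-poor promoters are known to be regulated differently, the first often serving genes that most cells use. The RefSeq table for GRCh38.p14 held a promoter for 63 of the 84 lost genes. The 250 bases before the start were searched for CG, which reads the same on both strands and was present at least once in 98.3% of all 13460 windows of this length that matched a listed gene. Lost genes held a median of 10 CG per window and the other 9915 genes of 0.5 CPM or more in PC9 a median of 21. By a common criterion (observed over expected CG of at least 0.6 and GC of at least 50%), 23 windows of lost genes were CG-rich (36.5%) against 77.9% of the others. The share also moved with expression level. Among 1101 other genes no higher in PC9 than the upper quartile of the lost genes the share was 60%. Among the 99 of them that were called lower in PC9OR it was 33.3%, so weakly expressed genes that fell without meeting the rule had a low share too. The order of the lost genes and of the other weakly expressed genes was the same for coding genes alone, with 41.5% of 53 against 61% of 917. No test was run, because genes are not replicates.

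**Figure D5:**
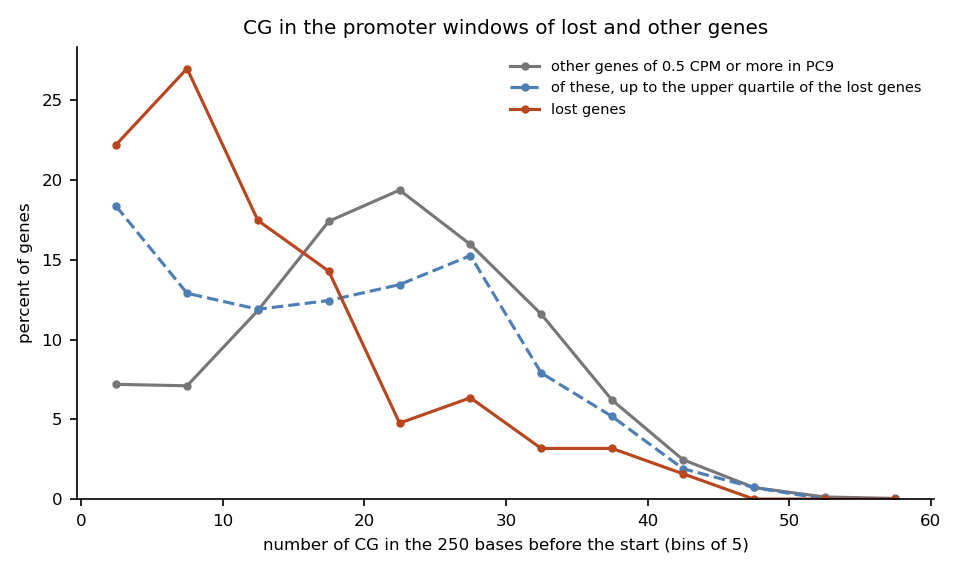
Percent of genes (y axis) by the number of CG in the 250 bases before their start (x axis, bins of 5) for 63 lost genes, 9915 other genes of 0.5 CPM or more in both PC9 libraries, and 1101 of these no higher than the upper quartile of the lost genes. The lost genes were most frequent in the bin that starts at 5 CG and the other genes in the bin that starts at 20 CG.

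Windows from both ends of this range are printed to show what they look like, from GRCh38.p14, each 5′ to 3′ along its gene with every CG in capitals. MAGEC1 (chrX:141903644-141903893, plus strand, 11 CG) is the most abundant lost gene, ENG (chr9:127854659-127854908, minus strand, 7 CG) an abundant one, and GCKR (chr2:27496589-27496838, plus strand, 3 CG) and RELN (chr7:103989659-103989908, minus strand, 43 CG) lie near the lower and at the upper end.
MAGEC1: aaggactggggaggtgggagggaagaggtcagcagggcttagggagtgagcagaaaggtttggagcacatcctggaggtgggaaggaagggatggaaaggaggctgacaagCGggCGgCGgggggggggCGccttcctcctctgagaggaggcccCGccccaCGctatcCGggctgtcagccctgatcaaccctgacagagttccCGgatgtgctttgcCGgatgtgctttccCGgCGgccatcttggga
ENG: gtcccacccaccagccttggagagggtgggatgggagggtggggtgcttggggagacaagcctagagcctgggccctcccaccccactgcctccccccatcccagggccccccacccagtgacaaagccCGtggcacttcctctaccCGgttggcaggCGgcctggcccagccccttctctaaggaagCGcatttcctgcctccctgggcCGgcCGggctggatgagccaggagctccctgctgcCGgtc
GCKR: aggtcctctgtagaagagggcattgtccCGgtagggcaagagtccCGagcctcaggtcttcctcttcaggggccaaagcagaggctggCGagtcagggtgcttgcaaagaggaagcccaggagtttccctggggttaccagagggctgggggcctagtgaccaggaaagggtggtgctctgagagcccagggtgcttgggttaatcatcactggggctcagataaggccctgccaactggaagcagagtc
RELN: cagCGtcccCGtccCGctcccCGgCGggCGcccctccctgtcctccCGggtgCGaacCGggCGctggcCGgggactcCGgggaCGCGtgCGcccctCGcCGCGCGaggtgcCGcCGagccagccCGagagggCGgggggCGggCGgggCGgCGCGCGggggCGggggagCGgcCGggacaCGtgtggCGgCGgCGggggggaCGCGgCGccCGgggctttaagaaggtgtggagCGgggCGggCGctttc

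The windows of the 3 lost zinc finger genes of chromosome 19 are printed because ZNF90 and ZNF682 were lost side by side and ZNF257 lies in the same family: ZNF90 (chr19:20077750-20077999, plus strand, 9 CG), ZNF682 (chr19:20039506-20039755, minus strand, 8 CG) and ZNF257 (chr19:22052234-22052483, plus strand, 10 CG).
ZNF90: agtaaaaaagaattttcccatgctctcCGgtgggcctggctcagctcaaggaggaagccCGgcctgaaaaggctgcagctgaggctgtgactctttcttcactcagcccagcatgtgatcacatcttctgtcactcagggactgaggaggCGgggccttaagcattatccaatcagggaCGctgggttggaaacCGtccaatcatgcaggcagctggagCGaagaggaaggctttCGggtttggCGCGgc
ZNF682: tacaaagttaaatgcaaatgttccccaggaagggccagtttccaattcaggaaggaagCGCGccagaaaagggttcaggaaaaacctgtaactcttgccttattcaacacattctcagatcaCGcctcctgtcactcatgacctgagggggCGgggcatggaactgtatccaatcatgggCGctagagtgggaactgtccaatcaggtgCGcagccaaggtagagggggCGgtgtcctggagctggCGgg
ZNF257: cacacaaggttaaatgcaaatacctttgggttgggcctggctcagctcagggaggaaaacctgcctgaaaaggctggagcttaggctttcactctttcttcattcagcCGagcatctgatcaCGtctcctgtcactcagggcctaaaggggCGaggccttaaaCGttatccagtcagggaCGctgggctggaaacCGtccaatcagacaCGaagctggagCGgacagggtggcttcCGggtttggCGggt

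The longest identical stretch was 18 bases between ZNF90 and ZNF257, 13 between ZNF682 and ZNF257 and 10 between ZNF90 and ZNF682. The letters CCAAT or their complement ATTGG occurred 2 times in the ZNF90 window, 3 times in ZNF682 and 1 time in ZNF257. They were present in 27 of the 63 lost windows (42.9%), 35.8% of the other genes of 0.5 CPM or more and 33% of all windows in the table. TATAAA, on either strand, was present in 9 of the lost windows (14.3%), against 5.38% of the other expressed genes and 11.1% of all windows. GGGCGG, which contains a CG, was present in 32 (50.8%) against 67.9% and 42.3%. CACGTG was present in 1 (1.59%) against 8.77% and 6.49%. A match is a description of letters and not a site.

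The genes nearest to the limits of the rule show how finely it divides. Inside the PC9 limit the lowest were KMO, GABRR2 and LIN28B, with the lower PC9 library at 0.516, 0.517 and 0.544 CPM. Outside it BTBD19 was at 0.906 and 0.493 CPM in PC9 and 0 and 0 CPM in PC9OR. TCN2 was at 0.517 and 0.489 CPM in PC9 and 0.0573 and 0.0932 CPM in PC9OR, and RYR2 at 0.56 and 0.482 CPM in PC9 and 0 and 0 CPM in PC9OR. Inside the PC9OR limit the highest were LINC02547, PCDH20 and KRTAP2-3. LINC02547 was at 0.697 and 0.598 CPM in PC9 and 0.0977 and 0 CPM in PC9OR. PCDH20 was at 0.733 and 0.551 CPM in PC9 and 0.0939 and 0 CPM in PC9OR, and KRTAP2-3 at 1.9 and 1.13 CPM in PC9 and 0.0939 and 0.0311 CPM in PC9OR. Outside it were MUC5AC, BMERB1 (3.66 and 3.54 CPM in PC9 and 0.0626 and 0.124 CPM in PC9OR) and ARMCX6, each with 0.124 CPM in PC9OR replicate 2, which is 4 counts.

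Agreement between the PC9 libraries varied among the lost genes. In 15 of the 84 (17.9%) they differed by more than 2-fold, close to the 15.5% of other genes as weakly expressed and above the 4.46% of all other genes of 0.5 CPM or more, and 52 of the 84 were higher in replicate 1. The largest differences were in MUC16, SETD1B and DNAJC6, all higher in replicate 1. Across the 12056 other genes, the ratio of PC9 replicate 2 to replicate 1 fell with transcript length (rank correlation -0.43). The rank correlation was -0.211 across the 84 lost genes and -0.175 across the 1466 other genes as weakly expressed. These correlations run over genes of the same 2 libraries and are a description. Expected counts were whole numbers in both PC9 libraries for 41 lost genes, and in the other 43 at least 1 was not.

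The other lists and symbol families are given as numbers called lower and higher, beside 11.6% and 6.13% over all tested genes. A symbol family holds every gene whose symbol begins with the given letters and so takes in unrelated genes. Among those without a lost gene, chemokines had 3 and 0 of 9 tested, and monocarboxylate transporters 3 and 1 of 11. Immunoglobulin adhesion molecules had 6 and 3 of 20 and cadherins 5 and 3 of 19. Imprinted genes had 2 and 2 of 14. Of the 2 called lower, KCNQ1OT1 turned direction with length offsets, as given below with the processing. Cytochromes P450 with glucuronosyltransferases and aldo-keto reductases had 4 and 4 of 26. Collagens had 6 and 3 of 24, and potassium channels 8 and 4 of 26. Symbols of G protein-coupled receptors had 17 and 1 of 85 (20% and 1.18%), and serpins 6 and 5 of 14. Symbols of homeobox and related transcription factor genes had 33 and 7 of 116 (28.4% and 6.03%). Symbols beginning with CLEC, KLR or CD, which include cell division genes, had 17 and 5 of 138 (12.3% and 3.62%). Of those among the 12 symbol families with a lost gene not yet counted, solute carriers had 32 and 17 among 251 others (12.7% and 6.77%). These were close to the shares over all genes. Symbols beginning with IL had 9 and 5 among 49 others (18.4% and 10.2%). Symbols beginning with LINC or LOC, 5 of them lost, had 32 and 17 among 208 others (15.4% and 8.17%). Further symbol stems of lost genes were counted, and not all are given. Among them, ARHGAP had 6 and 0 among 23 others (26.1% lower) and ANKRD 5 and 4 among 38. FAM had 9 and 7 among 103 others and DNAJC 0 and 0 among 24.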

How the data were processed

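RNA was extracted with TRIzol and libraries were made with a stranded TruSeq kit. Per the labels, the authors deposited for each gene and library an expected count (an estimated number of reads, not normalized), an FPKM value and the length of its transcripts, in bases. The submitters' processing notes name Bowtie2 2.2.5, RSEM 1.2.12 and GRCh37. The members and lists were chosen with earlier results of these data known.

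CPM was the deposited expected count over its library sum. Symbols came from RefSeq by Entrez identifier, positions from GENCODE on GRCh37 and promoters from RefSeq on GRCh38.p14. Expected counts were rounded and tested over all genes with edgeR 4.0.16 in R 4.3.3 (TMM, filterByExpr, glmQLFit, glmQLFTest), which kept 13148 genes. A call was over 2-fold with a Benjamini-Hochberg adjusted p under 0.05. The value after ± is an approximate SE, the size of the log2 fold change divided by the square root of the F statistic of the test. p-values measure only the spread between these libraries, which are labelled biological replicates. Whether they were separate cultures is not given in the sources used here. No p-value is given for lost genes. The fit and the rule were run on simulated data only to check the code. The genes planted for the rule were given no PC9OR count, so finding them was fixed in advance. 3 counts served as floor, and intervals for ratios were exact binomial ones at 95% on the pooled counts of each line. Because the rule used these counts, the intervals describe counting error and are not a test. Sequence sharing was the share of a gene's 50-base transcript words found in genes elsewhere. Genes that overlap its locus were left out of that share. The study applied a q value limit of 0.001, given among the alternatives. Genes named were the 30 most abundant lost genes, those in runs with their flanks, those on the 12 written lists and 12 symbol families, those nearest to each limit, and called list genes (in long lists examples), and the other lost genes were added after their values were seen. A few genes that the rule names are not reported here. Alternatives were DESeq2 1.42.0 size factors and Wald test, library totals, no filter, the replicate block, length offsets (mgcv 1.9.3), FPKM for CPM, other limits and each library left out.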

Additional observations from a re-analysis of the deposited data

How the results depend on the processing

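The number of lost genes depended on the limits, as the rule itself fixes. It was 84 with TMM-scaled libraries, 62 with FPKM, 53 with a PC9 limit of 1 CPM, 142 with 0.25 CPM, 61 and 123 with PC9OR limits of 0.05 and 0.2 CPM, and 46 with no PC9OR count allowed. Leaving out each library in turn gave between 112 and 157, with 157 without PC9 replicate 2 and 129 without PC9OR replicate 2. Over all tested genes the calls lower stayed between 1251 and 1562 under the other fits and between 1169 and 2000 with a library left out, and the calls higher between 761 and 893 and between 477 and 1331, with 477 without PC9OR replicate 1, 493 without PC9OR replicate 2 and 1331 without PC9 replicate 2. At an adjusted p under 0.001, the limit of the study, edgeR called 0 genes lower, 0 higher, 0 neighbours lower and 0 neighbours higher, by its quasi-likelihood test. At an unadjusted p under 0.05 it called 1718, 967, 32 and 3, and DESeq2 at the adjusted limit of 0.001 called 1227, 502, 27 and 1. Neighbours called lower numbered between 26 and 30 under the other fits, between 25 and 36 with a library left out, and 45 with 2 genes on each side; neighbours called higher numbered 5 with length offsets and the block, between 1 (without PC9OR replicate 1) and 6 (without PC9 replicate 2) with a library left out, and 9 with 2 genes on each side. In all 12 fits the share of neighbours called lower was above that of the other genes, but these fits reuse the same libraries and neighbours and are not repeated support. No pairing of the libraries by replicate number is stated in the sources used here. Same-numbered deviations had a correlation of 0.0505 over 12970 genes, which cannot exclude that such libraries were handled together. The replicate block called 1560 genes lower, 889 higher and 30 and 3 neighbours. Of 1549 refitted values of the 141 called genes of lists, neighbours and flanks, 1421 kept direction and side of the limit, 126 kept direction only (41 each without PC9OR replicate 1 and without PC9OR replicate 2), and 2 turned, both for KCNQ1OT1 with length offsets (log2 fold change 0.52, and 0.51 with the block); the cause was not tested. Depth limits the PC9OR side, where 3 counts equal 0.0939 and 0.0932 CPM, just under the limit of 0.1 CPM.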

Other observations

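Several genes fell steeply without meeting the rule, chosen here after their values were seen as those of 0.5 CPM or more in PC9 with a log2 fold change under -5. There were 20 among 12056. All were called lower by edgeR, which this choice makes near certain, and nothing is read from those calls. KYNU, the kynureninase that acts in the same pathway as the lost KMO, was at 177 and 241 CPM in PC9 and 2.54 and 3.82 CPM in PC9OR (log2 fold change -6.03 ± 0.30, edgeR adjusted p = 0.00249). The adhesion molecule MCAM was at 149 and 135 CPM in PC9 and 2.35 and 2.39 CPM in PC9OR (log2 fold change -5.89 ± 0.14, edgeR adjusted p = 0.00155) and the monocarboxylate transporter SLC16A7 at 69.5 and 60.6 CPM in PC9 and 0.751 and 0.901 CPM in PC9OR (log2 fold change -6.28 ± 0.18, edgeR adjusted p = 0.00155), so both kept readable levels in PC9OR. The amino acid transporter SLC6A14 was at 12 and 11 CPM in PC9 and 0 and 0.186 CPM in PC9OR and the galactosyltransferase UGT8 at 15.9 and 13 CPM in PC9 and 0.0632 and 0.248 CPM in PC9OR. Of the genes of nuclear proteins in this group, MIDN was at 48.7 and 28.4 CPM in PC9 and 0 and 0.642 CPM in PC9OR, SRCAP at 28.4 and 2.07 CPM in PC9 and 0.182 and 0.212 CPM in PC9OR and KDM6B at 10.9 and 5.63 CPM in PC9 and 0 and 0.424 CPM in PC9OR, and in all 3 the PC9 libraries differed, with replicate 1 the higher, as for the lost SETD1B. The other genes named here were KRT23, ARMCX6, IGFN1, PAPSS2, FLRT2, LOXL4, KCNN3, BMERB1, MUC5B, NAV2 and SDK1.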
